A study of Mus musculus with 12 samples.

Results

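The genes described here encode the building blocks, motors and regulators of the microtubule, together with the neurofilament proteins that fill axons. They were chosen by symbol: the alpha-, beta- and gamma-tubulins with the gamma-tubulin complex proteins (symbols beginning Tuba, Tubb or Tubg), the kinesins (Kif), the cytoplasmic dynein subunits (Dync, Dynl), the microtubule-associated proteins Map1b, Map2, Map4, Map6 and tau (Mapt), the end-binding proteins (Mapre), the stathmins (Stmn), the neurofilament subunits Nefl, Nefm and Nefh, and alpha-internexin (Ina). A gene became a member if at least 1 of its probe sets carried exactly 1 gene symbol and had a log2 signal above 4 in at least 3 of the 12 arrays, and each gene was then read from its probe set of highest mean signal. This left 51 members of 67 such genes in the table, out of 6651 genes tested in all.

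Microtubules are hollow polymers of alpha- and beta-tubulin, seeded from rings of gamma-tubulin. In neurons they run the length of axons and dendrites, where kinesins and dynein carry cargo along them, MAPs and tau bundle and stabilise them, end-binding proteins follow their growing tips, and stathmins bind free tubulin and promote disassembly. Neurofilaments are assembled from 3 Nef subunits together with alpha-internexin in central neurons and set the calibre of axons.

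The samples were striatum, the nucleus accumbens included, from female littermate mice aged 10 to 15 weeks that were caged singly and handled for 5 days. Each animal received an intraperitoneal injection of 25 mg/kg cocaine, a blocker of dopamine reuptake, or of saline, and was killed 1 hour later. By the sample titles, there were 3 arrays each of saline-treated control, cocaine-treated control, saline-treated mutant and cocaine-treated mutant animals, called biological replicates there. The series title names SRF, the serum response factor, a transcription factor that switches on immediate early and actin cytoskeleton genes. The titles label the controls wt and the mutants mut, with nothing more on the genotype of the controls. Neither the allele nor the cells in which it was changed is given in the sources used here. The treatment text gives cocaine for every sample, and the description field gives other groups than the titles. Srf itself follows the titles: it read 6.97 to 7.21 on the 6 control arrays and 5.01 to 5.49 on the 6 mutant arrays, 3.54-fold lower in mutants (log2 change −1.83, SE 0.0662, adjusted p = 5.7e-09 by limma).

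Values are log2 signals, so a difference of 1 is a doubling. A gene was called where its adjusted p was under 0.05 in limma's moderated test, with Benjamini-Hochberg adjustment over all 11102 probe sets tested. Errors of changes are limma's standard errors, and intervals are 95% intervals. Of 13 listed markers of striatal medium spiny neurons, 9 were tested and 4 had no probe set with 1 symbol, and the mean log2 signal of the 9 lay between 9.83 and 10.2 in every array. Of 11 listed markers of cortical glutamatergic neurons, 1 (Lmo4) passed the filter, 7 lay below it and 3 had no probe set. In bulk tissue, fewer cells of a type and less RNA per cell cannot be told apart. Array correlations were 0.986 to 0.993 within groups and 0.976 to 0.99 between them.

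Most of the 51 members had similar signals in mutants and controls. Averaged over both treatments, 2 were called as higher in mutants, Nefm and Dync1i2, and 1 as lower, Stmn4. That is 5.88% of the members, where 10.7% of all tested genes were called in this comparison (4.77% higher and 5.92% lower). With a stricter filter (log2 signal above 6), 8 of the 40 members left were called, where 15.2% of all probe sets were, and with an intensity trend and robust prior 6 of 51 were, where 11.2% of probe sets were. The share of probe sets was 9.47% in the reported fit. At an unadjusted p under 0.05, 11 members (21.6%) passed, against 25% of all genes. The changes ran from −0.33 to 0.52, with a median of 0.02 and a median size of 0.08, beside a median of −0.02 and a median size of 0.09 over all tested genes. For 50 of the 51 members (98%) the 95% interval of the difference lay within 0.5 log2 units of 0, a 1.41-fold change, as it did for 91% of all genes. Averaged over the members, the log2 signal lay between 7.65 and 7.74 on all 12 arrays.

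**Figure D1:**
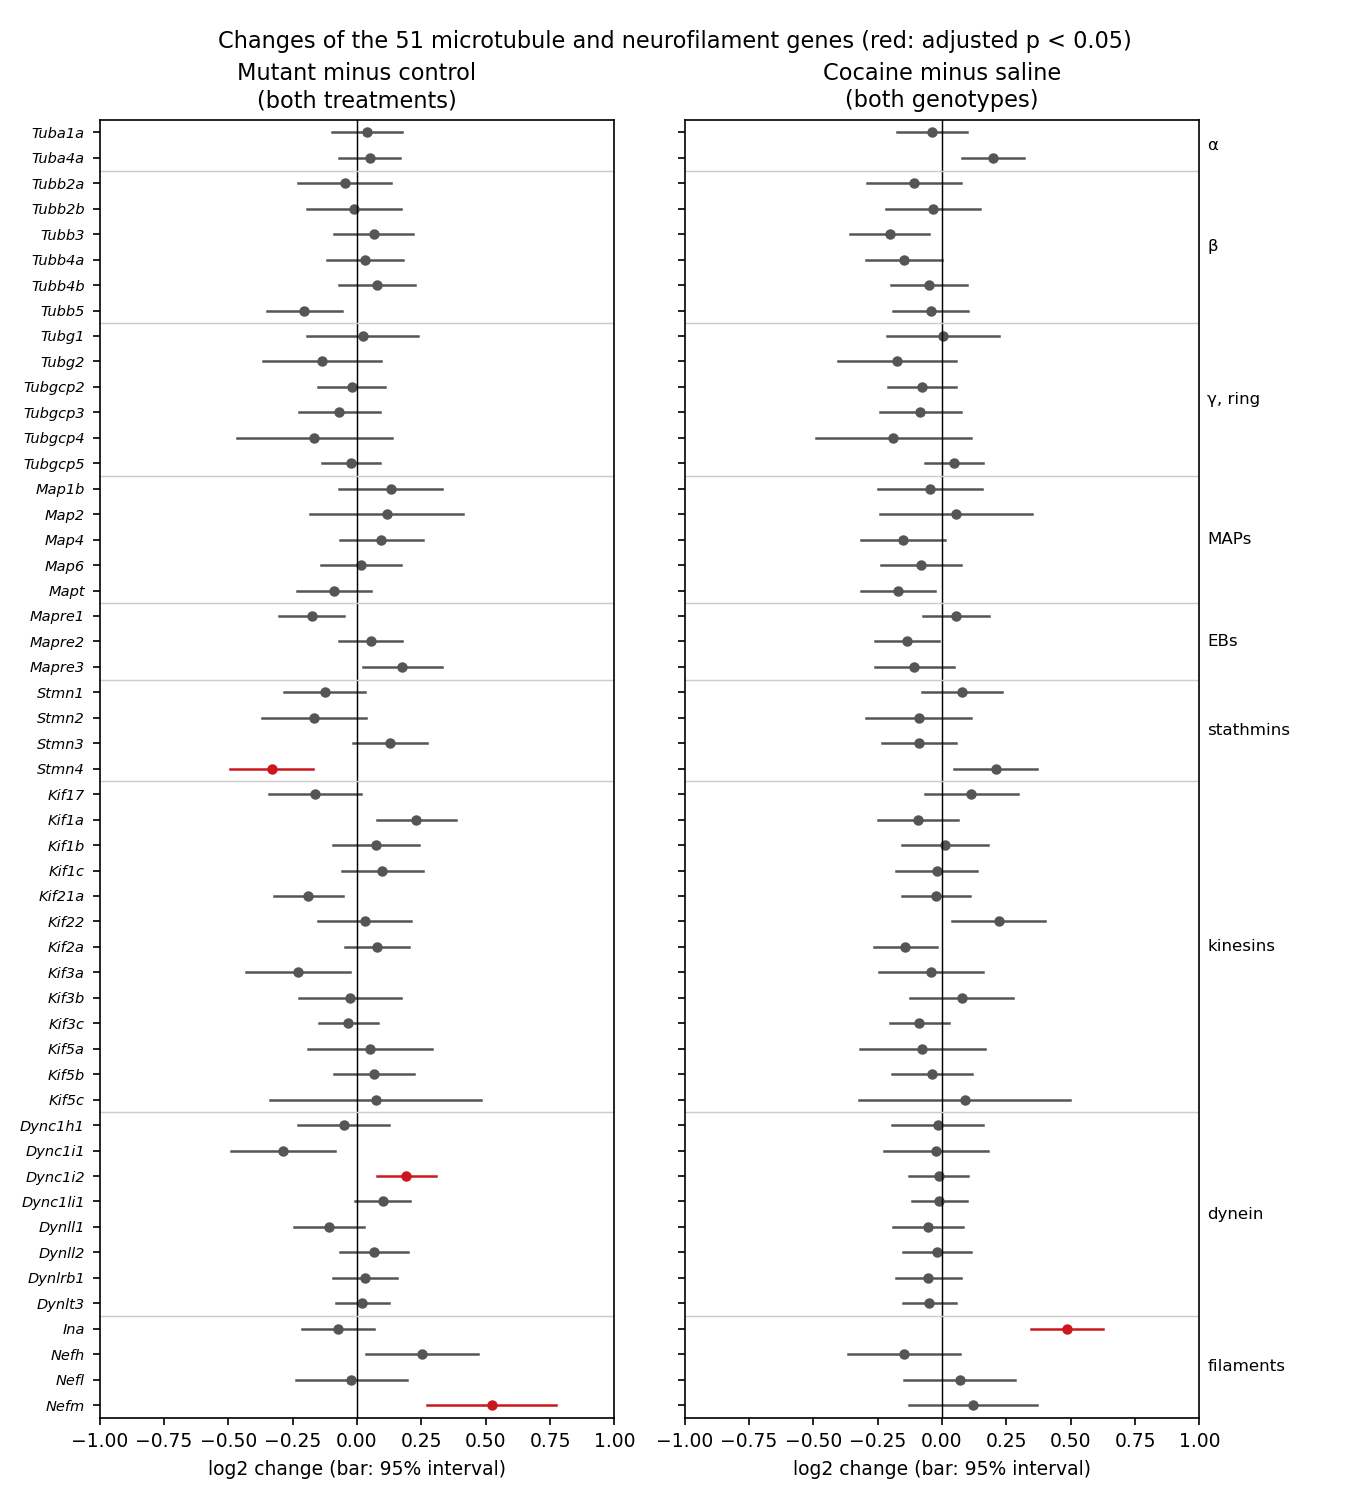
Log2 change (points) with 95% interval (bars) of each of the 51 members, ordered by role, for mutant minus control over both treatments (left) and cocaine minus saline over both genotypes (right); members called at an adjusted p under 0.05 are red. Nefm, Dync1i2 and Stmn4 are red on the left and Ina on the right, and the other members lie within 0.29 of 0 on the left and within 0.22 of 0 on the right.

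Nefm, which encodes the medium neurofilament subunit, was the member with the largest difference. It read 8.81, 9.01 and 8.86 in saline-treated controls and 9.13, 8.97 and 8.85 in cocaine-treated controls. Saline-treated mutants read 9.54, 9.66 and 8.96 and cocaine-treated mutants 9.68, 9.28 and 9.65. Of the 6 mutant arrays, 5 lay above every control array, and replicate 3 of the saline-treated mutants lay among the controls. Nefm was 1.44-fold higher in mutants (log2 change 0.52, SE 0.115, interval 0.27 to 0.77, adjusted p = 0.0123 by limma). The difference was 0.49 after saline and 0.55 after cocaine, neither called alone (adjusted p = 0.147 and 0.0835 by limma). Without replicate 3 of the saline-treated mutants, the change over both treatments was 0.63 (adjusted p = 0.000907 by limma), and Nefm was also called within each treatment. Without the filter on dim probe sets, which adds dim probe sets to the adjustment, the adjusted p rose to 0.0579.

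Nefl, the light neurofilament subunit and the immediate neighbour of Nefm in the RefSeq gene order, did not pass the test. It read 9.71, 9.25 and 9.46 in saline-treated controls, 9.48, 9.59 and 9.54 in cocaine-treated controls, 9.68, 9.55 and 9.10 in saline-treated mutants and 9.52, 9.46 and 9.58 in cocaine-treated mutants. The groups overlapped, and the change was −0.02 (interval −0.24 to 0.20). The log2 difference of Nefm and Nefl within an array lay between −0.90 and −0.24 in the 6 controls and between −0.17 and 0.16 in the 6 mutants, without overlap. These genes were set side by side after their values were seen, so this is a description with no test. Nefh, the heavy subunit, read 0.25 higher in mutants (SE 0.101, interval 0.04 to 0.47) without passing the test (adjusted p = 0.143 by limma), except without replicate 1 of the saline-treated controls. Its group means were 5.56 and 5.49 in controls and 5.89 and 5.66 in mutants, after saline and cocaine in turn, and 2 mutant arrays lay above every control. Ina differed between genotypes by −0.07 (SE 0.0648).

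**Figure D2:**
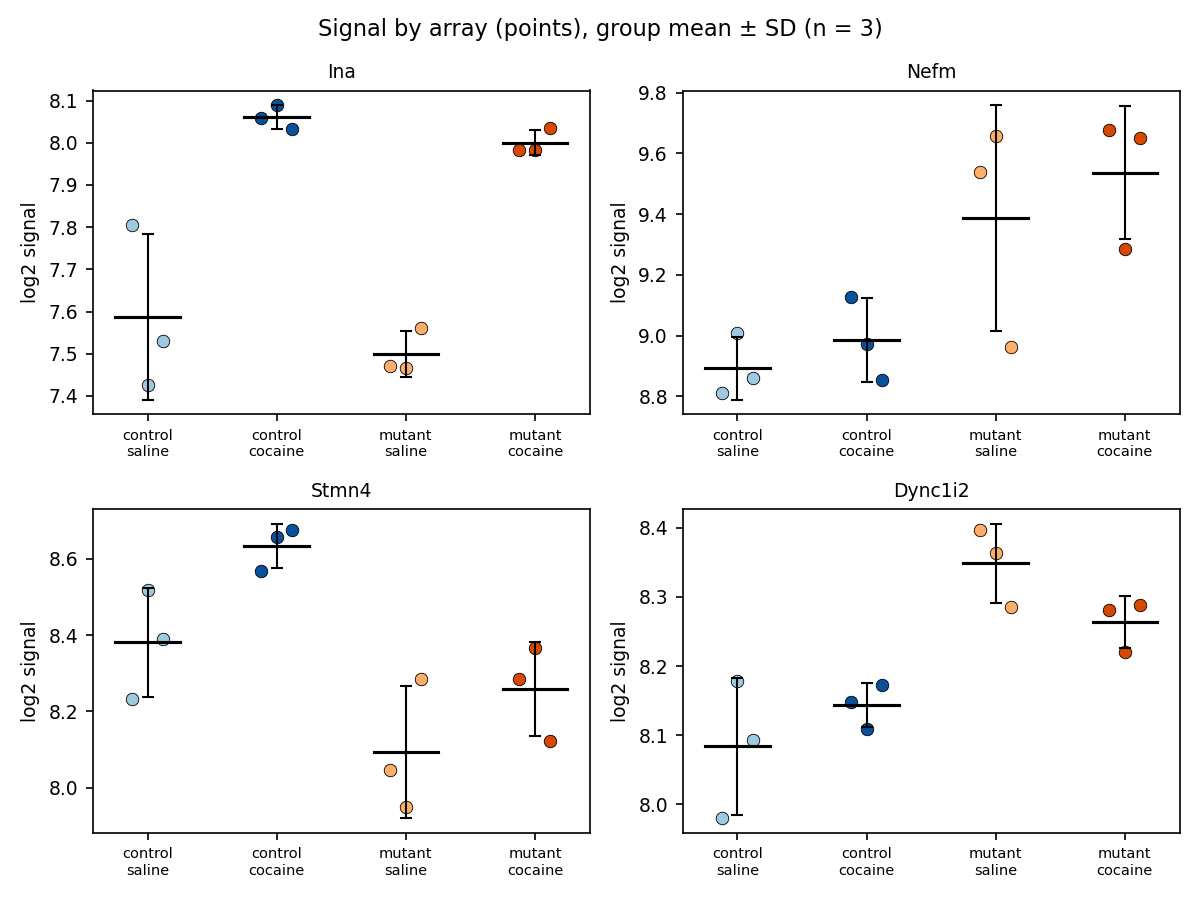
Log2 signal of the 4 called members on each array (points) by group, with the group mean (line) and SD (bar, n = 3 each); each panel has its own axis, which does not start at 0. Ina is high in both cocaine groups, Nefm and Dync1i2 are higher in mutants, with 1 saline-treated mutant array of Nefm at 8.96 among the controls, and Stmn4 is lower in mutants.

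Stmn4, a neuronal member of the stathmin family, was lower in mutants. It read 8.23, 8.52 and 8.39 in saline-treated controls and 8.57, 8.66 and 8.68 in cocaine-treated controls. Saline-treated mutants read 8.05, 7.95 and 8.29 and cocaine-treated mutants 8.29, 8.37 and 8.12. The groups overlapped, since 3 of the 6 mutant arrays lay below every control array and the others lay within the range of the controls. The change was −0.33 (SE 0.0746, interval −0.49 to −0.17, adjusted p = 0.0138 by limma), 1.26-fold, and it was called in all 20 alternative fits. Within treatments it was −0.29 after saline and −0.38 after cocaine, neither called (adjusted p = 0.198 and 0.0691 by limma), though the value after cocaine was called without replicate 3 of the saline-treated mutants.

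The other stathmins did not pass the test. Stmn3 read 11.04, 10.74 and 10.69 in saline-treated controls, 10.68, 10.65 and 10.75 in cocaine-treated controls, 10.98, 10.88 and 10.86 in saline-treated mutants and 10.91, 10.80 and 10.87 in cocaine-treated mutants. On this probe set all 6 mutant arrays of Stmn3 lay between the lowest and the highest control array, and the change was 0.13 (interval −0.02 to 0.27). On its other tested probe set 4 of the 6 mutant arrays lay above every control, with a change of 0.16 (interval 0.03 to 0.30, adjusted p = 0.135 by limma). Stmn1 differed by −0.13 and Stmn2, linked to growth cones, by −0.17.

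Among the dynein genes, 1 of 8 was called between genotypes over both treatments, where 10.7% of all genes were. Dync1i2, an intermediate chain that links the motor to dynactin, read 7.98, 8.18 and 8.09 in saline-treated controls and 8.15, 8.11 and 8.17 in cocaine-treated controls. Saline-treated mutants read 8.40, 8.36 and 8.29 and cocaine-treated mutants 8.28, 8.22 and 8.29. All 6 mutant arrays lay above all 6 controls, but the difference was small, 1.14-fold (log2 change 0.19, SE 0.0526, interval 0.08 to 0.31, adjusted p = 0.0368 by limma). The call was lost in 9 of the 12 fits that left out 1 array (adjusted p = 0.0621 to 0.079), and the change stayed between 0.17 and 0.22. It was kept without replicate 2 of the saline-treated controls, replicate 3 of the saline-treated mutants and replicate 2 of the cocaine-treated mutants.

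Dync1i1, the other intermediate chain, read the opposite way without passing the test. Its values were 7.14, 6.89 and 6.75 in saline-treated controls, 7.06, 6.95 and 6.87 in cocaine-treated controls, 6.84, 6.72 and 6.52 in saline-treated mutants and 6.74, 6.35 and 6.76 in cocaine-treated mutants. Of the mutant arrays, 4 lay below every control array, and the change was −0.29 (SE 0.0933, adjusted p = 0.0734 by limma). The motor subunit Dync1h1 differed by −0.05, and the light and light intermediate chains by −0.11 to 0.10. Dynll1, the brightest of these, read 11.59, 11.36 and 11.40 in saline-treated controls, 11.45, 11.36 and 11.36 in cocaine-treated controls, 11.20, 11.34 and 11.48 in saline-treated mutants and 11.29, 11.28 and 11.29 in cocaine-treated mutants. Its mutant arrays lay mostly below the controls, 5 of 6 below every one, by a mean of 0.11 (interval −0.24 to 0.03).

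None of the 14 tubulin and gamma-tubulin complex genes was called by limma between genotypes, and 1 of them, Tubb5, passed an unadjusted p under 0.05. Of all genes, 10.7% were called and 25% passed an unadjusted p under 0.05. The alpha-tubulin gene Tuba1a read 11.10, 10.98 and 10.94 in saline-treated controls, 10.94, 11.09 and 11.01 in cocaine-treated controls, 10.93, 11.18 and 11.16 in saline-treated mutants and 10.92, 11.01 and 11.08 in cocaine-treated mutants. The groups overlapped (change 0.04, interval −0.10 to 0.18), and Tuba4a gave 0.05 (interval −0.07 to 0.17). Among 6 beta-tubulins the changes ran from −0.20 to 0.08. Tubb5 was at the lower end (−0.20, SE 0.0676, adjusted p = 0.0769 by limma), with 9.62, 9.48 and 9.38 in saline-treated controls, 9.42, 9.64 and 9.50 in cocaine-treated controls, 9.29, 9.31 and 9.48 in saline-treated mutants and 9.14, 9.36 and 9.24 in cocaine-treated mutants. Of its mutant arrays, 5 lay below every control array.

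Tubb3, the beta-tubulin of neurons, differed by 0.07, Tubb4a by 0.03 and Tubb2a by −0.05. Tubb2a read 10.04, 9.65 and 9.74 in saline-treated controls, 9.74, 9.83 and 9.63 in cocaine-treated controls, 9.59, 9.85 and 9.93 in saline-treated mutants and 9.54, 9.65 and 9.77 in cocaine-treated mutants, and the groups overlapped. Tubulin genes are near-identical in their coding sequence, and the probe sets of Tuba1a and Tubb2a carry the suffixes x and s, which mark probes shared with other transcripts. Their signals may therefore hold several tubulins. The other members among the 9 with such a suffix are Dynll2, Dynlrb1, Kif22, Kif3b, Kif5a, Stmn1 and Stmn3. Their signals may likewise hold other transcripts. The gamma-tubulins and complex proteins, which seed microtubules, ran from −0.17 to 0.02, without a member at an unadjusted p under 0.05. Tubgcp2, the brightest, read 6.20, 6.09 and 6.30 in saline-treated controls, 6.10, 6.03 and 6.17 in cocaine-treated controls, 6.04, 6.24 and 6.20 in saline-treated mutants and 6.04, 6.18 and 6.06 in cocaine-treated mutants. All its mutant arrays lay within the range of the controls (change −0.02, interval −0.15 to 0.11).

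All 13 tested kinesins went without a call between genotypes by limma, and 3 passed an unadjusted p under 0.05. The shares over all genes were 10.7% and 25%. Kif1a, which hauls synaptic vesicle precursors down the axon, read 7.62, 7.89 and 7.97 in saline-treated controls, 7.79, 7.71 and 7.78 in cocaine-treated controls, 8.25, 8.07 and 7.94 in saline-treated mutants and 7.97, 7.96 and 7.96 in cocaine-treated mutants. Its change of 0.23 (SE 0.0713) had an adjusted p of 0.0613 by limma, and it was called when replicate 3 of the saline-treated controls or of the saline-treated mutants was left out. Kif21a (−0.19, adjusted p = 0.0736) and Kif3a, a motor subunit of heterotrimeric kinesin (−0.23, adjusted p = 0.155), read lower by the same test. Kif1b read 8.97, 9.41 and 9.38 in saline-treated controls, 9.34, 9.40 and 9.30 in cocaine-treated controls, 9.44, 9.40 and 9.40 in saline-treated mutants and 9.47, 9.31 and 9.24 in cocaine-treated mutants, a change of 0.08 (interval −0.09 to 0.24). The heavy chains of conventional kinesin, Kif5a, Kif5b and Kif5c, differed by 0.05, 0.07 and 0.07, the last with a wide interval of −0.34 to 0.48.

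A further 16 genes of these families lay under the signal filter, none with any array above 4. They included Kif11, Kif18a, Kif20a, Kif23, Kif2c and Kif4, motors of cell division, and the tubulin genes Tubb6, Tuba8 and Tuba3b. The third highest array value, which decides the filter, was 4.72 for the lowest member, Tubgcp4, and 4.79 for Tubg2, against 3.49 for the nearest gene outside, the pseudogene Tubb2a-ps2, and 3.45 for Kif16b.

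The end-binding proteins gave no call. Mapre1 read −0.18 (SE 0.0588, adjusted p = 0.0805 by limma) and Mapre3 0.18 (SE 0.0716, adjusted p = 0.152). Mapre2 read 10.49, 10.45 and 10.49 in saline-treated controls, 10.40, 10.32 and 10.35 in cocaine-treated controls, 10.51, 10.65 and 10.48 in saline-treated mutants and 10.32, 10.34 and 10.53 in cocaine-treated mutants, a change of 0.05 between genotypes. Its 3 other probe sets gave −0.06 to 0.09 without a call, and on the one at 0.09 (adjusted p = 0.313 by limma) 5 of the 6 mutant arrays lay above every control. Tau, Mapt, differed by −0.09 (interval −0.23 to 0.05), with 9.17, 8.81 and 8.93 in saline-treated controls, 8.97, 8.84 and 8.86 in cocaine-treated controls, 9.07, 8.92 and 8.92 in saline-treated mutants and 8.66, 8.73 and 8.72 in cocaine-treated mutants. The cocaine-treated mutants were the lowest group of Mapt. Map1b, Map2 and Map6, which stabilise axonal and dendritic microtubules, differed by 0.13, 0.11 and 0.01.

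Map4, the MAP that non-neuronal cells also make, depended on the probe set read. The chosen probe set, the brightest of 3, read 7.14, 7.06 and 7.06 in saline-treated controls, 6.70, 7.08 and 7.01 in cocaine-treated controls, 7.09, 7.16 and 7.27 in saline-treated mutants and 7.06, 6.88 and 7.16 in cocaine-treated mutants, with overlap and a change of 0.10 (interval −0.07 to 0.26). Both other probe sets were higher in mutants. The middle one read 6.16, 6.24 and 6.40 in saline-treated controls and 6.10, 6.49 and 6.25 in cocaine-treated controls, against 6.82, 6.74 and 6.68 in saline-treated mutants and 6.99, 6.88 and 6.94 in cocaine-treated mutants. The dimmest one read 6.19, 6.17 and 6.24, then 6.35, 6.36 and 6.29 in the control groups, and 6.77, 6.76 and 6.66, then 6.99, 6.70 and 6.79 in the mutant groups, in the same order. All 6 mutant arrays lay above all 6 controls on both.

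The changes were 0.57 (SE 0.0717, adjusted p = 0.000259 by limma), 1.48-fold, for the middle probe set and 0.51 (SE 0.0589, adjusted p = 0.000126 by limma), 1.43-fold, for the dimmest. Both were also called within each treatment, 0.48 and 0.53 after saline and 0.66 and 0.50 after cocaine. For the middle probe set the saline call was lost when replicate 1 or 2 of the saline-treated controls, or replicate 1 or 2 of the saline-treated mutants, was left out (change 0.42 to 0.48, adjusted p = 0.0653 to 0.0769 by limma). It was also lost without the signal filter (adjusted p = 0.0569) and with only the 6 arrays compared (adjusted p = 0.0571). Which transcripts each probe set detects was not analysed here. With the mean over all tested probe sets of each gene, Map4 joined the called members.

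**Figure D3:**
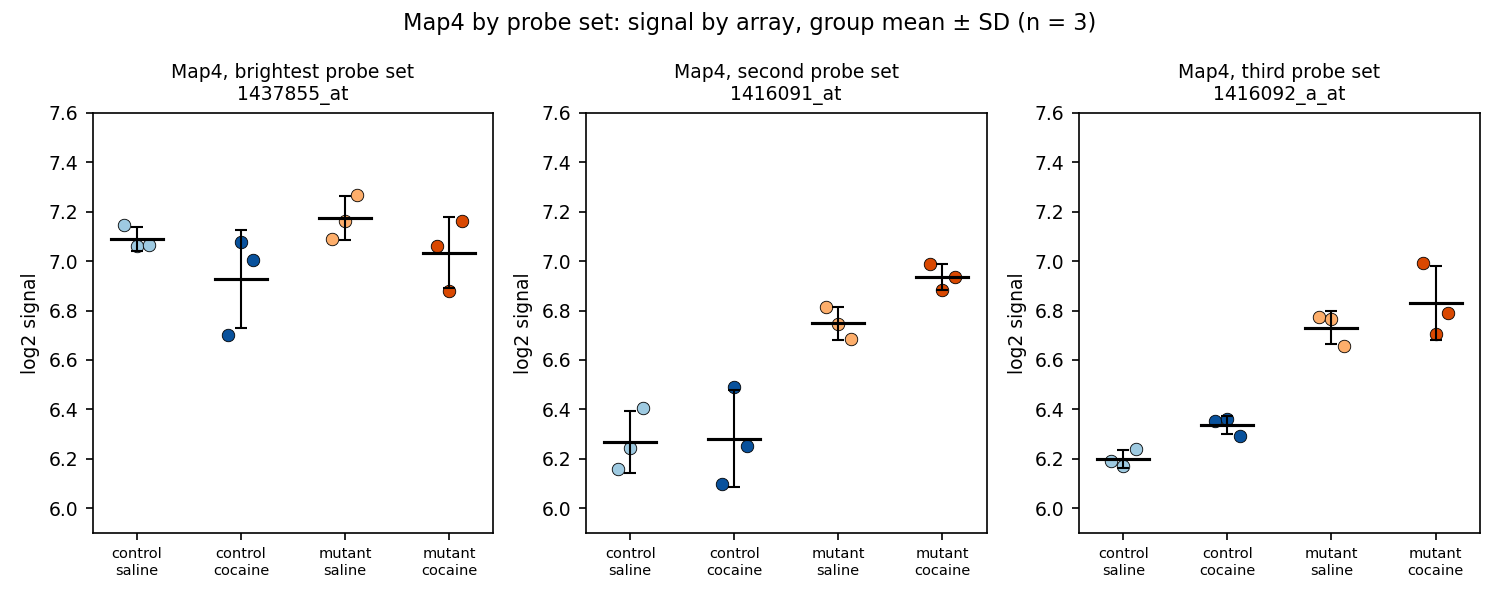
Log2 signal of the 3 tested Map4 probe sets on each array (points) by group, with group mean (line) and SD (bar, n = 3 each), on a shared scale that does not start at 0. The brightest probe set (left) overlaps between genotypes, and on the others all 6 mutant arrays lie above every control array.

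Within single treatments, 0 of the 51 chosen probe sets were called by limma between genotypes after saline (7 at an unadjusted p under 0.05) and 0 after cocaine (6 at an unadjusted p under 0.05), where 3.43% and 4.75% of all genes were called. The 3 members called over both treatments kept their sign in each, and Dync1i2 read 0.26 after saline (adjusted p = 0.0847 by limma) and 0.12 after cocaine (adjusted p = 0.462).

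Genes of the actin filament gave other values on the same arrays. Of 16 tested genes for actins, tropomyosins, filamins, alpha-actinins, cofilins and profilins, 6 were called as lower and 2 as higher in mutants over both treatments. Over all genes, 5.92% were called as lower and 4.77% as higher. The changes of the 16 ran from −1.25 (Actg1) to 0.52 (Tpm2), with a median of −0.11 and a median size of 0.20, against a median size of 0.08 for the 51 microtubule and neurofilament genes. Tpm2 was dim, with a mean log2 signal of 3.95. The interval lay within 0.5 of 0 for 11 of the 16. The actin genes were picked with their changes known, and the difference between the sets was not tested.

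**Figure D4:**
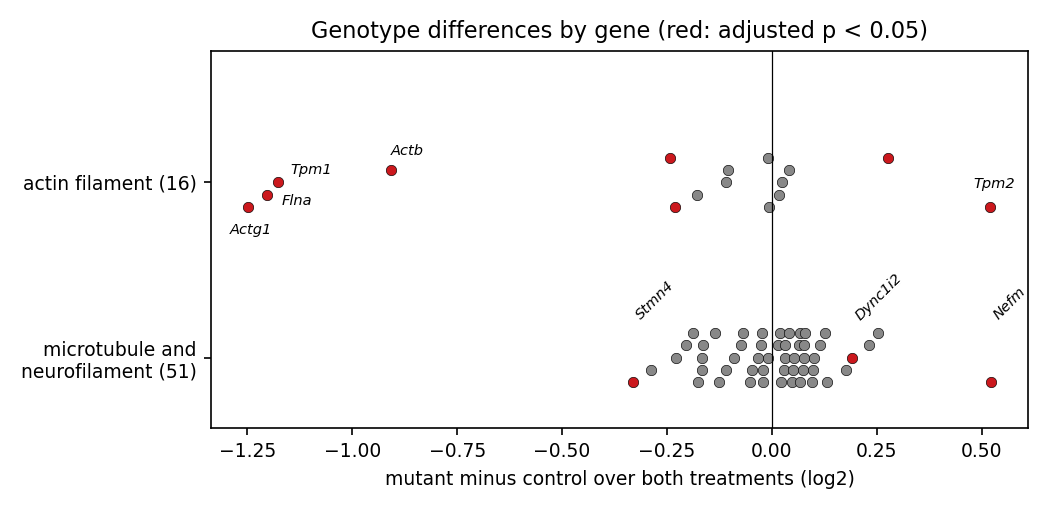
Mutant minus control over both treatments (log2) for the 51 microtubule and neurofilament genes and for 16 actin filament genes; each point is 1 gene, red where called at an adjusted p under 0.05, and vertical spacing only separates points. The microtubule and neurofilament genes lie between −0.33 and 0.52, and Actg1, Flna, Tpm1 and Actb lie at −0.91 or below.

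After cocaine, 1 of the 51 members rose over both genotypes, where 2.53% of all genes were called (2.32% higher). This was Ina, the gene of alpha-internexin, an intermediate filament protein that co-assembles with neurofilaments. It read 7.81, 7.43 and 7.53 in saline-treated and 8.06, 8.09 and 8.03 in cocaine-treated controls. Saline-treated mutants read 7.47, 7.47 and 7.56 and cocaine-treated mutants 7.98, 7.98 and 8.03. All 6 cocaine arrays lay above all 6 saline arrays. Over both genotypes Ina rose 1.4-fold (log2 change 0.49, SE 0.0648, interval 0.35 to 0.63, adjusted p = 0.000756 by limma), a call kept in all 20 alternative fits. Its other probe sets also rose, by 0.53 (adjusted p = 0.00238 by limma) and 0.32 (adjusted p = 0.0419). Within a genotype, neither was called in controls (0.56 and 0.37, adjusted p = 0.0611 and 0.293 by limma) and the first was called in mutants (0.49, adjusted p = 0.0464).

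The rise had similar size in both genotypes. It was 0.47 in controls (SE 0.0916, adjusted p = 0.0437 by limma) and 0.50 in mutants (SE 0.0916, adjusted p = 0.011), the 1 member called in each, where 0.586% of genes were called in controls and 2.14% in mutants (1.98% higher). The difference between the genotypes was 0.03 (interval −0.25 to 0.31). The call in controls was lost in 11 of the 12 fits that left out 1 array (adjusted p = 0.0567 to 0.198), every one but that without replicate 1 of the saline-treated controls (0.58, adjusted p = 0.00336), and that array had the highest saline value of Ina. In mutants the call was lost without replicate 2 of the saline-treated mutants (0.48, adjusted p = 0.0522).

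The promoter of Ina is shown because Ina is the member that cocaine raised. It is the RefSeq sequence of the 250 bases before the gene's start in build GRCm38.p6, chr19:47014431-47014680, plus strand, written 5′ to 3′, with a match to GCGGGGGCG, the binding motif of the EGR family, in capitals on the reverse strand.
Ina: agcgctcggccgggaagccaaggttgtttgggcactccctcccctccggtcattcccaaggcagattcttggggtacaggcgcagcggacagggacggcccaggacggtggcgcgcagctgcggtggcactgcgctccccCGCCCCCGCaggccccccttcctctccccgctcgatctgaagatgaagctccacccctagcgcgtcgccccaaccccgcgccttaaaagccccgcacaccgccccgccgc
The match begins 110 bases before the start. In windows from 250 bases before to 50 after a start, searched on both strands, GCGGGGGCG was found in 2 of the 36 members with a window (Ina and Dync1li1) and in 3.31% of 27025 genes. The Ina stretch has 70.8% G and C, and 16.1% of the 2727 windows at or above that content held the motif. A match describes these letters and does not show a site in use.

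The CArG box, the motif SRF binds, was found in 0 of the 36 members' windows and in 1.81% of all genes' windows, and 15 members had no window in the table. The full cAMP response element TGACGTCA was found in 3 members (8.33%) and in 2.03% of all genes. The shorter TGACG, which the full element contains, was found in 17 members (47.2%) and 23% of genes. These shares were not set beside windows of like G and C content, and the differences were not tested. The stretches around the full element, in capitals, are given because the element binds CREB, a factor that neuronal stimulation activates.
Kif17: attccgtcctgTGACGTCAcggaggttgcc
Kif5c: gatctctgcagTGACGTCAccgtgccgagg
Tubb2a: ctctgcccccaTGACGTCAgcgggactggg
The element in capitals begins 86, 26 and 59 bases before the starts. The whole stretches lie at chr4:138262154-138262183 and chr2:49619249-49619278 on the plus strand and chr13:34078049-34078078 on the minus strand of GRCm38.p6. With cocaine over both genotypes, Kif17, which carries NMDA receptor vesicles in dendrites, read 0.11 (interval −0.07 to 0.29), Kif5c 0.09 (interval −0.32 to 0.50) and Tubb2a −0.11 (interval −0.29 to 0.07).

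Over both genotypes, 9 members (17.6%) passed an unadjusted p under 0.05 for cocaine, against 11.4% of all genes. Over both genotypes the median change of the members was −0.04, and 15 of 51 read higher after cocaine, beside a median of −0.01 and 3100 of 6651 over all genes. In controls 26 members read higher (median 0.00), beside 3340 of all genes, and in mutants 14 did (median −0.07), beside 3065 of all genes. For 50 members the interval over both genotypes lay within 0.5 of 0. The difference between the genotypes in the response was called by limma for 0 members, against 0.105% of genes, and 1 member, Tubb4a, passed an unadjusted p under 0.05.

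**Figure D5:**
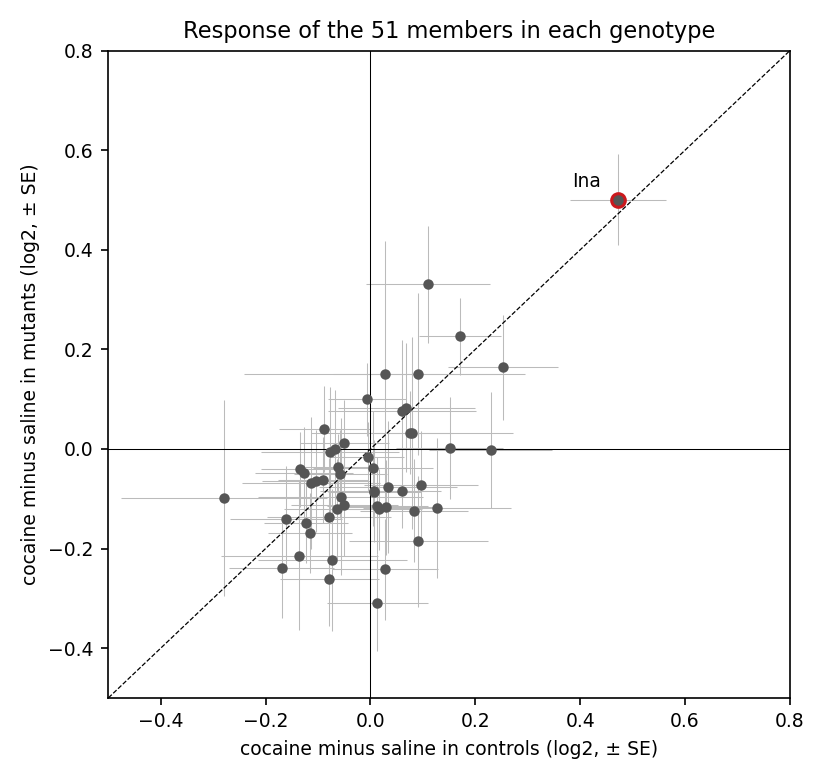
Cocaine minus saline (log2) in controls (horizontal) and mutants (vertical) for the 51 members, with limma's SE as bars; the dashed line marks equal responses. Ina, in red, stands at 0.47 and 0.50, and the other members lie between −0.31 and 0.33 on both axes.

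Of the other members, Tuba4a came nearest to the threshold for cocaine. It read 10.76, 10.55 and 10.53 in saline-treated and 10.71, 10.82 and 10.82 in cocaine-treated controls, and 10.65, 10.61 and 10.64 in saline-treated and 10.88, 10.87 and 10.83 in cocaine-treated mutants. Of the 6 cocaine arrays, 5 lay above every saline array. The change was 0.20 (SE 0.055, adjusted p = 0.103 by limma), and the probe set was called with array weights, with an intensity trend and robust prior, and without replicate 1 of the saline-treated controls. Stmn4 read 0.21 (SE 0.0746, adjusted p = 0.247) and Kif22, a chromosome-binding kinesin, 0.22 (SE 0.0833, adjusted p = 0.292) by the same test.

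Averaged over genotypes, the 6 beta-tubulins had changes of −0.20 to −0.03 after cocaine, none called by limma and 2 at an unadjusted p under 0.05. In controls alone 3 of the 6 read higher, with changes of −0.17 to 0.03 and 0 at an unadjusted p under 0.05. Tubb3 read −0.20 (adjusted p = 0.234 by limma). Tubb4a read 8.25, 8.29 and 8.42 in saline-treated and 8.17, 8.43 and 8.40 in cocaine-treated controls, and 8.47, 8.48 and 8.58 in saline-treated and 8.04, 8.26 and 8.31 in cocaine-treated mutants. Its change was 0.01 in controls and −0.31 in mutants (adjusted p = 0.182 by limma), a difference of −0.32 (interval −0.62 to −0.03) with an adjusted p of 0.98. Tau read −0.17 (adjusted p = 0.322 by limma), and the 8 dynein genes lay between −0.05 and −0.01.

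Among lists of genes that act with these members, none had more than 2 called genes in 1 direction in a comparison. Over all genes, 10.7% were called between genotypes over both treatments, 2.53% with cocaine over both genotypes and 2.14% with cocaine in mutants. The lists are short, and their shares were not tested against these. Of 10 tested kinesin light chains and cargo adaptors, 1 was called with cocaine. This was Trak1, which couples mitochondria to kinesin and dynein, and it rose by 0.56 over both genotypes (SE 0.069, adjusted p = 0.000418 by limma), by 0.71 in mutants (adjusted p = 0.00137), and read 0.40 in controls (adjusted p = 0.144), with a difference in response of 0.31 (SE 0.138, adjusted p = 0.983). Trak1 was 0.25 higher in mutants over both treatments (adjusted p = 0.0362 by limma), with 0.10 after saline (adjusted p = 0.705) and 0.41 after cocaine (adjusted p = 0.0347). The brightest uncalled gene of the list, Klc1, read −0.02 with cocaine. Of 11 dynactin genes and dynein regulators, 2 rose with cocaine over both genotypes, the dynactin subunit Dctn3 (0.29, adjusted p = 0.0045 by limma) and Ndel1, a dynein regulator (0.25, adjusted p = 0.0498), and 0 differed by genotype (2 at an unadjusted p under 0.05). Dctn3 read 0.26 in controls (adjusted p = 0.222 by limma) and 0.33 in mutants (adjusted p = 0.0309). Ndel1 read 0.11 in controls (adjusted p = 0.951 by limma) and 0.39 in mutants (adjusted p = 0.0336). Its difference in response was 0.28 (adjusted p = 0.98 by limma). Dctn1, the brightest uncalled gene of this list, read 0.03 with cocaine over both genotypes.

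Of 23 other microtubule-binding proteins and kinases, Dclk1, a doublecortin-like protein kinase, was 0.66 higher in mutants (SE 0.069, adjusted p = 6.28e-05 by limma) and Cdk5r2, an activator of Cdk5, 0.30 lower (−0.30, adjusted p = 0.0395), while Cdk5r1 read 0.04. For the lists in this paragraph too, the shares over all genes were 10.7% between genotypes, 2.53% with cocaine over both genotypes and 2.14% with cocaine in mutants. Of 15 tubulin folding and modifying genes, Tbcc, a folding cofactor, was 0.36 higher in mutants over both treatments (adjusted p = 0.0116 by limma). It rose by 0.35 with cocaine over both genotypes (adjusted p = 0.0383 by limma). Within a genotype this rise was not called, at 0.24 in controls (adjusted p = 0.794 by limma) and 0.45 in mutants (adjusted p = 0.0657). Tbca read −0.10 by genotype. Of 13 end-tracking, severing and polymerising factors, Clip4 was lower in mutants (−0.33, adjusted p = 0.00476 by limma) and Clasp1 read −0.08. Of 2 tested genes for other intermediate filaments, the astrocyte filament gene Gfap fell by 1.02 with cocaine in mutants (adjusted p = 0.0303 by limma) and Vim read −0.15 there. Gfap was dim, with a mean log2 signal of 4.35. It was not called over both genotypes (−0.61, adjusted p = 0.0636 by limma), in controls (−0.20, adjusted p = 0.961) or for the difference in response (−0.82, adjusted p = 0.903). After saline Gfap read 0.80 higher in mutants than in controls (adjusted p = 0.076 by limma).

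Markers of other cells were set beside the called members. Between genotypes, limma called 0 of 10 astrocyte, 0 of 8 oligodendrocyte, 0 of 8 microglia and 0 of 4 interneuron genes (3, 0, 0 and 2 at an unadjusted p under 0.05). Of 9 medium spiny neuron genes, it called 3 as higher in mutants, Pde1b (0.39, adjusted p = 0.00113), Tac1 (0.35, adjusted p = 0.00102) and Penk (0.19, adjusted p = 0.0431). It called 1 as lower, Rgs9 (−0.33, adjusted p = 0.0342), where 10.7% of all genes were called in either direction. Lmo4, the 1 tested of 11 listed cortical markers, read −0.18 (SE 0.0679, adjusted p = 0.116 by limma). With 7 of the others below the filter and 3 without a probe set, this value says little about cortical neurons. Of 9 listed neuroblast genes, which include the member Tubb3, 5 were tested, and Sox11, Mki67, Top2a and Igfbpl1 lay below the filter. Of the 5 tested, limma called Dlx2 as higher in mutants (0.40, SE 0.0913, adjusted p = 0.0144). Dlx1 read 0.23 (adjusted p = 0.088 by limma), Dlx5 0.08, Tubb3 0.07 and Dcx −0.13. The mean log2 signal of the 5 tested genes lay between 5.38 and 5.57 in controls and between 5.51 and 5.75 in mutants. Of 7 endothelial and mural, 4 oligodendrocyte precursor, 3 thalamic or septal neuron and 1 choroid plexus genes, limma called 0 between genotypes, and 0 passed an unadjusted p under 0.05. Ttr, the choroid plexus gene, read 2.83 in replicate 1 and 9.61 in replicate 3 of the cocaine-treated controls. Its change of 0.28 (SE 1.002) therefore says little about choroid plexus tissue. The endothelial and mural list averaged 4.81 in replicate 1 of the saline-treated controls and 5.21 to 5.88 on the other arrays. The mean log2 signal of the interneuron list lay between 6.83 and 7.09 in controls and between 6.89 and 7.33 in mutants, and that of the medium spiny neuron list between 9.83 and 10.09 in controls and between 10.03 and 10.21 in mutants. Their part in the differences of Nefm, Stmn4 and Dync1i2 was not tested. With cocaine over both genotypes, limma called 0 of the 9 medium spiny neuron genes and 0 of the 10 astrocyte genes (0 and 2 at an unadjusted p under 0.05).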

How the data were processed

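Each array gave 1 value per probe set. The authors made these log2 signals with GCRMA in R 2.4.1, as the submitters' processing notes list. No source used here gives the log base, the GCRMA options or the genome build, and log2 was taken from the range of the values. The median signal of an array ran from 3.75 to 3.78. A shift common to all genes would therefore no longer be visible. GCRMA compresses differences of dim probe sets.

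Groups came from the sample titles. Gene names came from the platform annotation, and all 51 members matched a RefSeq gene of GRCm38.p6 by Entrez identifier with the same symbol. A further 10 probe sets named a gene of these families among several symbols and were not used as members. The data held 22690 probe sets, including 64 control probe sets that were left out. Of the rest, 11102 passed the filter, standing for 6651 genes.

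All 12 arrays were fitted with limma 3.58.1 in R 4.3.3 as 4 group means, with 7 contrasts. The moderated test (eBayes) had 8 residual degrees of freedom and gained 4.71 from its prior, and Benjamini-Hochberg adjustment ran over all probe sets tested. The fit was tested on simulated data. Shares over all genes use 1 probe set per gene. Alternatives varied the filter, the normalization, the weights and prior of the test, the probe set rule, the replicate block and the arrays fitted. P-values set a group difference against the spread between samples within groups, moderated by limma, and the number of arrays limits the precision. No batch is named in the labels.

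The members and the gene lists were chosen with earlier results of these data known. Values on every array are given for each called member, for the brightest uncalled member of each role group and for probe sets of a member that disagree in their call. Dync1i1, Tubb5, Kif1a, Tuba4a and Tubb4a were added after their values were seen. In lists of other microtubule genes, every called gene and the brightest uncalled one are named. Motifs were searched in RefSeq promoter windows.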

Additional observations from a re-analysis of the deposited data

How the results depend on the processing

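The direction of each called member held in every alternative run. Called members between genotypes over both treatments numbered 8 with the stricter filter (a log2 signal above 6, 40 members left), 6 with an intensity trend and robust prior, and 2 to 4 without 1 array, in place of 3. All 3 were among those 8 and those 6. After saline the count was 1 without the filter, 1 with the stricter filter, 1 with the trend and robust prior, 1 with the mean over a gene's probe sets and 0 to 1 without 1 array, in place of 0. After cocaine it was 1 with the stricter filter, 2 with array weights, 2 with the trend and robust prior, 1 with the mean over probe sets, 1 with only the 6 arrays compared and 0 to 2 without 1 array, in place of 0. For cocaine over both genotypes it was 2 with array weights, 2 with the trend and robust prior and 1 to 2 without 1 array, in place of 1. In controls it was 0 without the filter, 0 with only the 6 arrays compared and 0 to 1 without 1 array, and in mutants 0 to 1 without 1 array, in place of 1 each. Replicate numbers recur in every group, but 1 of 18 same-number pairs had residuals correlated above 0.1 (range −0.145 to 0.116), so they were not treated as pairs. With the replicate number as a block, Ina in controls (adjusted p = 0.0904 by limma) and Dync1i2 between genotypes (adjusted p = 0.0726) were no longer called, which left 0 members called for cocaine in controls. The difference in response kept 0 called members in all 20 alternatives. Quantile normalization and median centring left every count of called members within 1.5 times. Some alternatives tested fewer probe sets or fitted fewer arrays, and the cause of these changes was not tested.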

Other observations

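Replicate 1 of the saline-treated controls was the array farthest from its group's median for 30 of the 51 members and for 44.7% of all tested genes, where the other arrays of that group were farthest for 13 and 8 members. The median within-group SD of the members was 0.137 in saline-treated controls, against 0.0925 in cocaine-treated controls, 0.104 in saline-treated mutants and 0.0958 in cocaine-treated mutants. Among cocaine-treated mutants, replicate 2 was farthest for 26 of the 51 members and for 37% of all genes.

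Within an array, the log2 difference of Dync1i2 and Dync1i1 lay between 0.84 and 1.34 in the 6 controls and between 1.53 and 1.87 in the 6 mutants. That of Stmn4 and Stmn3 lay between −2.80 and −1.99 in controls and between −2.94 and −2.43 in mutants, with overlap. These pairs were chosen after their values were seen and were not tested.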
